A study of Mus musculus with 96 samples.

Results

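The data describe what controlled cortical impact (CCI) did to gene expression in the mouse hypothalamus 3 days post-injury (dpi), with injured and sham mice compared across both drug arms. All libraries labelled hypothalamus at 3 dpi were taken, which are 16 of the 96 libraries of the series: 8 from mice with traumatic brain injury (TBI) and 8 from sham mice, with the drug arm as a covariate and all genes entering the test. In CCI a piston strikes the exposed cortex of the anaesthetised animal after a craniectomy, here on the left, whereas sham mice had anaesthesia and a scalp incision without craniectomy. The mice were adult C57BL/6 males of 8 to 10 weeks, and each group had 4 libraries: Sham + VH and TBI + VH received vehicle (VH, saline with sodium carbonate), and Sham + CD and TBI + CD received candesartan (CD), a blocker of the angiotensin AT1 receptor, at 0.1 mg/kg by intraperitoneal injection 6, 24 and 48 h after surgery. The hypothalamus of the injured side was dissected after perfusion with saline, and the 4 RNA samples of highest quality per group were sequenced, so the libraries were selected on RNA quality. The craniectomy was part of the injury and absent from the sham, and their effects cannot be told apart.

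The hypothalamus lies at the base of the brain, away from the cortex that the piston hits, and controls feeding, water balance, body temperature and pituitary hormone release through neurons that make peptides. Microglia are the resident macrophages of the brain. On activation they take up debris through lysosomes, make complement C1q and can divide, while reactive astrocytes make intermediate filaments such as glial fibrillary acidic protein and complement components C3 and C4.

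The libraries held between 17150610 and 31253784 counts, and the medians of the groups were 27516140 (Sham + VH), 24380875 (Sham + CD), 22944450 (TBI + VH) and 22102374 (TBI + CD). Levels are given as CPM, the counts relative to the TMM-scaled size of the library. The label was checked against defining genes: across the 16 libraries Nkx2-1, a hypothalamic transcription factor, was at 24.8 CPM ± 6.93 (SD), against 2.16 ± 1.40 in the thalamus and 0.418 ± 0.271 in the hippocampus of the same series, and Avp, the vasopressin gene, was at 308 ± 88.3 CPM against 21.4 ± 22.5 and 1.05 ± 0.874. The libraries varied in the level of ependyma genes. The ependyma list, 14 genes of ciliated cells that line the ventricle, summed to 24.5 to 30.8 CPM in 4 libraries (Sham + VH 1 and 2, Sham + CD 4 and TBI + CD 1) and to 59.7 to 257 CPM in the other 12. Of those 4 libraries 3 are sham and 1 is TBI, so a gene that differs between the 4 and the 12 can also differ between sham and TBI. Among the genes named below, Vim, Agrp, Foxj1, Hydin, Col23a1, Rax and Syt1 did not overlap between the 4 libraries and the other 12, and other genes differed in part. The pituitary list summed to 1.12 to 380 CPM in sham and 2.39 to 80.2 CPM in TBI libraries. In bulk tissue, fewer cells of a type and less RNA per cell cannot be told apart.

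Injury changed few genes by the test across both arms. Of 16946 genes tested, 5 were higher in TBI (0.0295% of those tested) and 0 were lower, where a called gene needed a Benjamini-Hochberg adjusted p under 0.05 together with a log2 fold change of more than 0.32 in size in edgeR's quasi-likelihood test. The 5 genes are Mki67, a protein of the chromosome surface that dividing cells make, C4b, complement component 4, Cd68, a lysosomal membrane protein of macrophages and microglia, A2m, the protease inhibitor alpha-2-macroglobulin, and Ly86, the secreted partner (MD-1) of the microglial surface receptor CD180. At an unadjusted p under 0.05 there were 1327 genes (7.83%), 714 higher in TBI (4.21%) and 613 lower (3.62%), and log2 fold changes were above 0 for 49.8% of the genes tested. DESeq2 called 19 genes higher (0.0982% of the 19339 with an adjusted p) and 0 lower, among them all 5. The other 14 were Top2a, Fcrls, C1qc, Clec7a, Cd52, C1qa, D17H6S56E-5, H2-K1, Lyz2, Gfap, Ccl6, Cdk6, Cd180 and Ckap2l, at DESeq2 adjusted p-values from 0.000902 to 0.0498. Adjusted p-values given below are those of edgeR, whose main test these 14 genes did not pass.

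Mki67 (chr7:135689784-135716361, minus strand, mm10) had the lowest adjusted p. It stood at 0.635, 0.718, 0.606 and 0.816 CPM in Sham + VH and at 2.17, 1.40, 1.97 and 1.45 CPM in TBI + VH. In the candesartan arm it was at 0.777, 0.610, 0.377 and 0.615 CPM in Sham + CD and at 1.82, 2.84, 1.69 and 1.31 CPM in TBI + CD. All 8 injured libraries were above all 8 sham libraries. The level was 2.83-fold higher after injury (log2 fold change 1.50 ± 0.18 SE, adjusted p = 0.00436), on 9 to 23 counts per sham and 22 to 64 per TBI library. Mki67 remained called when each of the 16 libraries was left out in turn, with log2 fold changes of 1.38 to 1.56. Shrinkage of the fold changes in DESeq2, which pulls imprecise and large values towards 0, gave 0.39 for Mki67, against 1.51 without shrinkage.

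C4b (chr17:34728380-34743882, minus strand) was measured on 1023 to 2548 counts per library. Its levels were 57.8, 48.9, 52.1 and 36.5 CPM in Sham + VH against 92.6, 73.9, 75.3 and 75.7 CPM in TBI + VH. With candesartan they were 44.2, 56.4, 56.9 and 45.0 CPM in Sham + CD against 99.1, 113, 83.3 and 62.5 CPM in TBI + CD. The groups did not overlap, and the highest sham library was Sham + VH 1. The difference was 1.70-fold (log2 0.76 ± 0.11, adjusted p = 0.0208), and the shrunken log2 fold change of DESeq2 was 0.42. C4a, a close copy of C4b on the same chromosome (chr17:34809092-34823464), was at 5.61 to 8.51 CPM in sham and 5.95 to 10.1 CPM in TBI libraries, which overlap (log2 0.12 ± 0.11). How reads that match both copies were assigned is not given in the sources used here, so the split between them is uncertain.

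Cd68 (chr11:69664213-69666153, minus strand) stood at 6.05, 6.12, 5.61 and 5.71 CPM in Sham + VH and at 7.36, 8.33, 8.77 and 8.48 CPM in TBI + VH. In the other arm it was at 6.43, 6.06, 5.27 and 6.00 CPM in Sham + CD and at 7.33, 10.2, 7.57 and 9.70 CPM in TBI + CD. Every injured library was higher than every sham library, and the sham libraries lay close together. The rise was 1.43-fold (log2 0.52 ± 0.08, adjusted p = 0.0208).

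Ly86 (chr13:37345208-37419036, plus strand) was at 5.97, 8.12, 7.74 and 8.48 CPM in Sham + VH and at 10.4, 9.77, 9.87 and 10.02 CPM in TBI + VH. It was at 6.56, 7.85, 6.19 and 7.56 CPM in Sham + CD and at 10.02, 10.1, 8.96 and 10.3 CPM in TBI + CD. The TBI libraries spread less than the sham libraries and all lay above them (1.36-fold, log2 0.44 ± 0.07, adjusted p = 0.0431). Cd180, the receptor that Ly86 pairs with, also did not overlap, at 1.09 to 1.77 CPM in sham and 1.85 to 3.03 CPM in TBI, but did not pass edgeR's test (log2 0.57 ± 0.12, adjusted p = 0.156).

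A2m (chr6:121635376-121679227, plus strand) was at 13.7, 10.7, 10.4 and 12.4 CPM in Sham + VH and at 18.9, 17.5, 13.7 and 17.1 CPM in TBI + VH. The values were 10.2, 12.9, 11.8 and 10.3 CPM in Sham + CD and at 15.4, 16.1, 14.5 and 14.3 CPM in TBI + CD. The separation was narrow, since the lowest TBI library and the highest sham library both round to 13.7 CPM (1.38-fold, log2 0.46 ± 0.08, adjusted p = 0.0431).

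The calls of C4b, Cd68, Ly86 and A2m depended on single libraries, although their directions did not. Leaving out each library in turn, C4b remained called in 7 of 16 fits, Cd68 in 8, A2m in 4 and Ly86 in 2, and leaving out any of Sham + VH 2, Sham + VH 3, TBI + VH 2, TBI + VH 4 or Sham + CD 1, 3 or 4 left 1 called gene. Their log2 fold changes in these fits were 0.70 to 0.82 for C4b, 0.48 to 0.55 for Cd68, 0.43 to 0.50 for A2m and 0.40 to 0.47 for Ly86. With the ependyma score of each library as a covariate, Mki67, C4b (0.81, adjusted p = 0.0161) and Cd68 (0.51, adjusted p = 0.0495) were called, and A2m (0.47, adjusted p = 0.0991) and Ly86 (0.44, adjusted p = 0.101) were not. Without the 4 libraries of low ependyma score, a setting chosen after the data were seen, none of the 5 was called, at log2 fold changes of 1.52 for Mki67 (adjusted p = 0.0712), 0.78 for C4b (0.123), 0.59 for Cd68 (0.0633), 0.46 for A2m (0.222) and 0.41 for Ly86 (0.198), and C1qa, C1qc and Gsn were called instead. With the first residual component of the libraries as a covariate, 435 genes were higher (2.57%), all 5 among them. That component was computed from the same counts with injury and drug fitted out, so by construction it holds no injury difference. The larger number of calls is therefore no added support for the 5 genes.

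**Figure D1:**
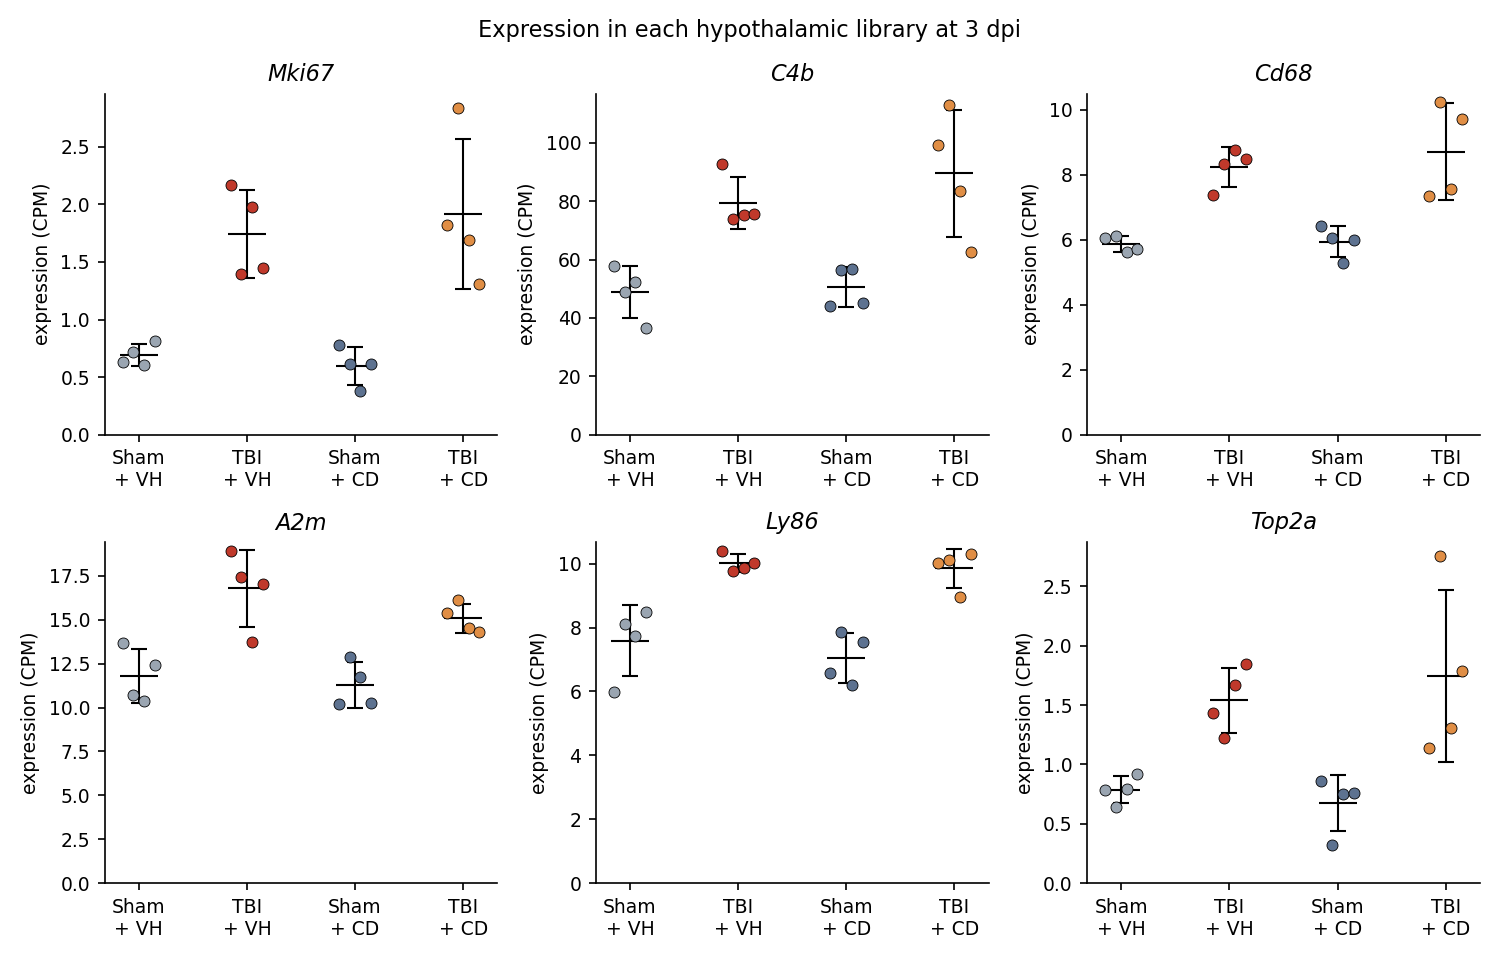
Level of the 5 called genes and Top2a in each of the 16 libraries (y axis, CPM) by group (x axis), with each point a library, the long bar the group mean and the whiskers its SD. For every gene the TBI points of both arms sit above the sham points, for example 1.31 to 2.84 CPM against 0.377 to 0.816 CPM for Mki67.

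Few genes separated the injured from the sham libraries completely. The 8 TBI libraries all lay above the 8 sham libraries for 13 genes (0.0767% of those tested) and all below for 5 (0.0295%). Beside the 5 called genes and Cd180, those higher in TBI were Top2a, the topoisomerase that untangles DNA in dividing cells, Ckap2l, a protein of the mitotic spindle, Csf3r and Fcgr3, receptors for granulocyte colony-stimulating factor and for antibody, and Obfc1, Rfwd3 and Ube2d3, with roles in telomere replication, DNA damage signalling and ubiquitin transfer. The last 3 differed little, with log2 fold changes of 0.14, 0.09 and 0.08. The 5 lower in TBI were Otof, otoferlin, which binds calcium at vesicle release sites, BC052040, Mcf2l, a guanine nucleotide exchange factor, Pnldc1, an RNA exonuclease, and Cds2, an enzyme of phospholipid synthesis.

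Otof (chr5:30367062-30461932, minus strand) was the decrease nearest to the threshold. It was at 80.2, 73.8, 80.6 and 68.2 CPM in Sham + VH and at 58.8, 62.9, 63.6 and 65.0 CPM in TBI + VH. In the candesartan arm the values were 71.5, 68.4, 70.5 and 80.3 CPM in Sham + CD and at 61.3, 67.1, 60.1 and 62.5 CPM in TBI + CD. All injured libraries were lower (log2 -0.24 ± 0.04, adjusted p = 0.0707), but the adjusted p missed the threshold and the change was below the size required. The other decreases of smallest p were small: BC052040 at log2 -0.29 (adjusted p = 0.149), the kinase gene Map4k2 at -0.16 (0.266), Mcf2l at -0.10 (0.289), the chymotrypsin-like protease gene Ctrl at -0.40 (0.338), 6430571L13Rik at -0.32 (0.360), the transcription factor gene Tfap4 at -0.24 (0.552), Pnldc1 at -0.43 (0.555), Amigo1, a neuronal adhesion protein, at -0.10 (0.555) and Ppfia4, a liprin of the presynaptic active zone, at -0.13 (0.555). None of these passed the test.

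Of the 25 cell cycle genes tested, edgeR called Mki67 and DESeq2 called Mki67 and Top2a. In that list 4 were higher in TBI at an unadjusted p under 0.05 and 0 lower, 22 had a log2 fold change above 0, and the median was 0.17 against -0.001 for all genes tested. Top2a (chr11:98992943-99024189, minus strand) was next. It was at 0.784, 0.642, 0.797 and 0.922 CPM in Sham + VH and at 1.43, 1.22, 1.67 and 1.85 CPM in TBI + VH, then at 0.863, 0.325, 0.753 and 0.760 CPM in Sham + CD and at 1.14, 2.75, 1.31 and 1.79 CPM in TBI + CD. The groups did not overlap (log2 1.16 ± 0.21, adjusted p = 0.0870), on 8 to 26 counts per sham and 25 to 62 per TBI library. Ckap2l, which is not on the list, was at 0.251 to 0.604 CPM in sham and 0.637 to 1.25 CPM in TBI (log2 0.94 ± 0.18, adjusted p = 0.108), and Cdk6, a kinase of the G1 phase, had medians of 0.177 and 0.466 CPM with overlapping libraries (1.41 ± 0.27, adjusted p = 0.108). The most abundant members of the list moved little. Log2 fold changes were 0.03 for Pcna, the DNA polymerase clamp, 0.10 for the replicative helicase gene Mcm4 and 0.08 for Racgap1, a regulator of cell division. Of the 33 listed genes 8, among them Cdk1 and Aurkb, were too low to be tested.

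The promoters of Mki67 and Top2a are shown because these cell cycle genes had the largest log2 fold changes among the genes whose groups did not overlap. Each line gives 250 bases before and 50 after the RefSeq start of the gene in GRCm38.p6, 5′ to 3′ on the gene's strand, at chr7:135716330-135716629 for Mki67 and chr11:99024140-99024439 for Top2a. Capitals mark matches, on either strand, to CCAAT (the CCAAT box), TTTGAA (the core of the cell cycle homology region of late cell cycle genes), GAGGAA (the core bound by the myeloid factor PU.1), the core of the interferon-stimulated response element and TTCNNNGAA (the core of a STAT site). Neighbouring matches run together, as CCAAT and GAGGAA do in Top2a.
Mki67: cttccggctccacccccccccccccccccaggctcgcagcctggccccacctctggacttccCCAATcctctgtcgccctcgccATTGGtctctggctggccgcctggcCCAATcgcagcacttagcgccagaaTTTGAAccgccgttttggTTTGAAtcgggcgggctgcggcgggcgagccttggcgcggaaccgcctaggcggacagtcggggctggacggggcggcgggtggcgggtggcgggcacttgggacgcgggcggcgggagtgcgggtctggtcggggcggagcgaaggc
Top2a: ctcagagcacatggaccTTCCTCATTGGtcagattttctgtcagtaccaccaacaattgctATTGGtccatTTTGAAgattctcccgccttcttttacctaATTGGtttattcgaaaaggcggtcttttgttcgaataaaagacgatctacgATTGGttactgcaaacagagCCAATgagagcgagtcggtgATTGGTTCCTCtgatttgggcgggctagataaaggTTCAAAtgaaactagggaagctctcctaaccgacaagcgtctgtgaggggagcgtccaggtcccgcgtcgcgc

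The Mki67 window held 3 matches to CCAAT and 2 to TTTGAA, the latter beginning 116 and 98 bases before the start. The Top2a window held 6 matches to CCAAT, 2 to TTTGAA and 2 to GAGGAA. Among 32851 mouse promoter windows of this length, 37.4% held CCAAT, 17.9% TTTGAA, 28.3% GAGGAA, 3.44% the interferon-stimulated response element core and 8.30% TTCNNNGAA, so each of the matched motifs is common. A match is a description of the letters and no evidence of binding.

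Genes of activated microglia were mostly higher after injury, by small amounts. Over all genes tested, 4.21% were higher at an unadjusted p under 0.05, 49.8% lay above 0 and the median was -0.001. The counts of this and the following lists stand beside these shares. Of 25 genes tested from the list of microglial activation, 2 were called by edgeR (Cd68 and Ly86) and 4 by DESeq2 (also Clec7a and Lyz2), 16 were higher at an unadjusted p under 0.05 and 0 lower, 24 lay above 0, and the median log2 fold change was 0.34. The largest was Clec7a, the beta-glucan receptor dectin-1, a marker of disease-associated microglia, with 0.0747, 0.227, 0.287 and 0.461 CPM in Sham + VH and at 0.520, 0.785, 0.607 and 0.791 CPM in TBI + VH. It was at 0.173, 0.407, 0.167 and 0.145 CPM in Sham + CD and at 0.410, 1.33, 0.761 and 0.833 CPM in TBI + CD, so that 1 sham library, Sham + VH 4, lay above the lowest TBI library (1.60 ± 0.31, adjusted p = 0.108). Lyz2, the lysozyme of myeloid cells, was at 5.65 to 10.9 CPM in sham and 7.86 to 17.8 CPM in TBI libraries and gave 0.72 ± 0.17 (adjusted p = 0.293). The lipid receptor gene Trem2 gave 0.32 (adjusted p = 0.210), its signalling partner Tyrobp 0.34 (0.338), the protease genes Ctss 0.26 (0.0927) and Ctsd 0.12 (0.610), Axl, which recognises dying cells, 0.11 (0.610), and Gpnmb, a lysosomal glycoprotein, 0.36 (0.634). Ccl6, a chemokine, and Cd52, a small surface protein of leukocytes, were outside the list and gave 0.88 (0.156) and 0.999 (0.0931). The list summed to 1330 to 1490 CPM in sham and 1420 to 1590 CPM in TBI libraries, which overlap.

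Genes that mark resting microglia were described by the homeostatic list. It had 0 of 13 genes called by edgeR and 1 by DESeq2 (Fcrls), 3 at an unadjusted p under 0.05, all higher, and a median of 0.09. Among them were Fcrls, an Fc receptor-like protein of microglia, at 0.53 ± 0.10 (adjusted p = 0.108), and Olfml3, a secreted protein, at 0.30 ± 0.06 (0.156). The receptor genes Cx3cr1 and Csf1r, for fractalkine and for colony-stimulating factor 1, gave 0.02 ± 0.04 and 0.09 ± 0.04. Fcrls was at 7.62 to 12.6 CPM in sham and 11.7 to 19.1 CPM in TBI libraries, with TBI + CD 1 the only injured library inside the sham range.

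Complement genes showed the same direction. Of 16 tested, C4b was called by edgeR, C1qa and C1qc in addition by DESeq2, 11 were higher at an unadjusted p under 0.05 and 0 lower, and the median log2 fold change was 0.33. The list summed to 238 to 286 CPM in sham and 304 to 384 CPM in TBI libraries without overlap, a sum that includes C4b. The 3 chains of C1q, which starts the classical cascade, gave 0.34 for C1qa (adjusted p = 0.164), 0.28 for C1qb (0.173) and 0.33 for C1qc (0.0931). C3, on which all complement routes converge, was at 2.24 to 6.19 CPM in sham and 3.87 to 9.54 CPM in TBI (0.89 ± 0.24, adjusted p = 0.530). Its low values fell in the libraries of low ependyma score, at 2.24 to 3.87 CPM against 3.50 to 9.54 CPM in the others. C3 kept its direction and side of the threshold in 29 of 30 alternative settings and passed the threshold in 1. Among those settings were the ependyma score as covariate and the fit without the libraries of low ependyma score. How much of the C3 difference came from ependyma content was not tested.

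Astrocytes were described by a reactive and a homeostatic list. In the reactive list 0 of 16 genes were called by edgeR and 1 by DESeq2 (Gfap), 5 were higher at an unadjusted p under 0.05 and 0 lower, 15 lay above 0, and the median was 0.31. The list summed to 371 to 461 CPM in sham and 473 to 677 CPM in TBI libraries, which did not overlap. Gfap, at 168 to 500 CPM, had the largest part in that sum, and its own values overlapped. Gfap, the intermediate filament of astrocytes, was at 296, 292, 240 and 168 CPM in Sham + VH and at 378, 324, 368 and 382 CPM in TBI + VH. With candesartan it was at 263, 263, 240 and 244 CPM in Sham + CD and at 500, 415, 295 and 288 CPM in TBI + CD. The TBI libraries of the vehicle arm lay above all sham libraries, and TBI + CD 3 and 4 lay within the range of Sham + VH (0.56 ± 0.12, adjusted p = 0.156). With the ependyma score as a covariate Gfap was called, at 0.69 (adjusted p = 0.0123), but not without the 4 libraries of low score (0.59, adjusted p = 0.222) or in any of the 16 fits that left out a library. Vim, vimentin, gave 0.60 ± 0.22 (adjusted p = 0.610) and was lower with a low ependyma score, at 19.7 to 29.2 CPM in the 4 libraries of low ependyma score and 37.8 to 85.2 CPM in the other 12. Serpina3n, a protease inhibitor of reactive astrocytes, gave 0.31 ± 0.13 (adjusted p = 0.633). The homeostatic list had 0 of 14 called, 3 higher at an unadjusted p under 0.05 and a median of 0.07. In it Aqp4, the water channel of astrocyte endfeet, gave 0.25 ± 0.06 (adjusted p = 0.459), and Slc1a2, the main glutamate transporter, and Aldoc, a glycolytic enzyme, both gave 0.05.

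**Figure D2:**
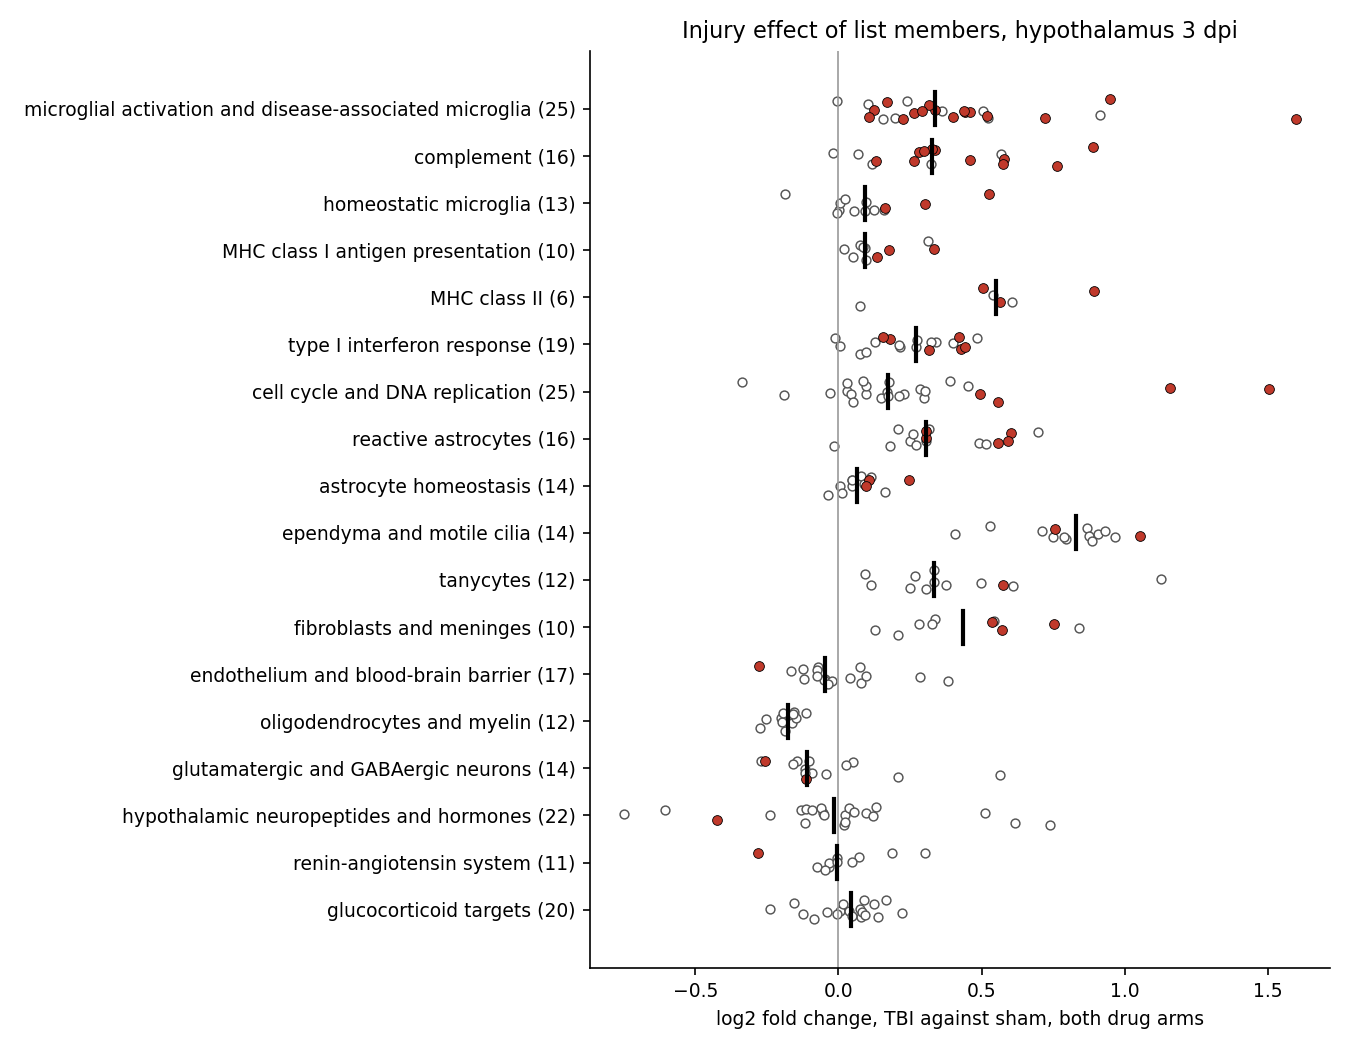
Log2 fold change of TBI against sham (x axis) for every tested gene of a selection of the lists (y axis, number tested in brackets), as points, with the list median as a bar and red points at an unadjusted p under 0.05. The medians of the microglial activation, complement and reactive astrocyte lists are 0.34, 0.33 and 0.31, and that of all genes tested is -0.001.

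Interferon and antigen presentation genes had 0 called by edgeR and 1, H2-K1, by DESeq2. In the type I interferon list 6 of 19 were higher at an unadjusted p under 0.05 and 0 lower (median 0.27), in the MHC class I list 3 of 10 (median 0.09) and in the MHC class II list 3 of 6 (median 0.55). Lgals3bp, a secreted glycoprotein induced by interferon, gave 0.16 (adjusted p = 0.633) and the interferon-induced Ifi27l2a 0.49 (0.637). H2-K1, a class I heavy chain, was at 18.7 to 26.4 CPM in sham and 22.9 to 33.1 CPM in TBI (0.33 ± 0.07, adjusted p = 0.164), while B2m, its light chain, gave 0.17 and H2-D1, another heavy chain, 0.08. H2-Ab1, a class II chain, was highest in TBI + VH 2 (4.76 CPM), TBI + CD 3 (3.93 CPM) and TBI + CD 2 (2.62 CPM), and in sham in Sham + CD 2 (2.44 CPM), with 0.89 ± 0.30 (adjusted p = 0.610). Cd74, the class II chaperone, followed the same libraries at 13.5 CPM in TBI + VH 2, 9.002 in TBI + CD 3 and 7.52 in Sham + CD 2.

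Those 3 libraries were also the highest for genes of the meninges. Ogn, the fibroblast proteoglycan osteoglycin, was at 26.9 CPM in TBI + VH 2, 30.3 in TBI + CD 3 and 14.5 in Sham + CD 2, and at 3.42 to 6.84 CPM in the other 13. The fibroblast list had 0 of 10 called, 3 higher at an unadjusted p under 0.05 and a median of 0.44, and it summed to 130 to 293 CPM in sham and 133 to 513 CPM in TBI libraries. Igf2, a growth factor of meninges, gave 0.34 ± 0.32 and Fn1, fibronectin, 0.54 ± 0.35. The part of meningeal tissue in the class II values was not tested.

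Genes of border and infiltrating macrophages, lymphocytes, chemokines and cytokines, and blood gave 0 calls, and part of them could not be tested. Of the list of border and infiltrating macrophages 12 of 15 could be tested, 0 were called, 1 was higher at an unadjusted p under 0.05 and the median was 0.07. That gene was Ccr2, the receptor that draws monocytes into tissue, at 0.149 to 1.02 CPM in sham and 0.0595 to 1.18 CPM in TBI (0.90 ± 0.41, adjusted p = 0.633). Ccr2 was highest in TBI + CD 3 (1.18 CPM), TBI + VH 2 (1.13 CPM) and Sham + CD 2 (1.02 CPM), which were also the highest for genes of the meninges. The part of meningeal tissue in the Ccr2 values was not tested. None of the 9 lymphocyte markers reached the level needed for testing, and Cd3e, a chain of the T cell receptor complex, was at 0 to 0.121 CPM. Of 17 chemokines and cytokines 6 could be tested and 11, among them Il1b, Il6, Tnf and Ccl2, could not. Of the 6 tested 0 were called and 1 was higher at an unadjusted p under 0.05, Cxcl16, a chemokine of myeloid cells (0.56 ± 0.16, adjusted p = 0.610). In the blood list 0 of 3 were called (median 0.46), and the sum was 7.78 to 29.5 CPM in sham and 8.93 to 58.1 CPM in TBI libraries.

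Vascular genes gave 0 calls. In the list of endothelium and blood-brain barrier 0 of 17 genes were higher and 1 lower at an unadjusted p under 0.05, with a median of -0.05. The lower gene was Cldn5, the tight junction protein claudin-5, at a median of 14.2 CPM in sham and 11.9 CPM in TBI with wide overlap (-0.28 ± 0.12, adjusted p = 0.633). Slc2a1, the glucose transporter of the barrier, gave 0.08 ± 0.08 and Tjp1, a scaffold of tight junctions, 0.04 ± 0.03. Pericyte and smooth muscle genes had 0 of 8 at an unadjusted p under 0.05 (median 0.05).

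The peptides of the hypothalamus varied widely between libraries. Of 22 neuropeptide and hormone genes 0 were called by edgeR, 0 were higher and 1 lower at an unadjusted p under 0.05, 11 had a log2 fold change above 0, and the median was -0.02. Pmch, the precursor of melanin-concentrating hormone, was at 695, 659, 412 and 281 CPM in Sham + VH and at 406, 356, 365 and 520 CPM in TBI + VH. It was at 464, 539, 384 and 596 CPM in Sham + CD and at 404, 343, 180 and 444 CPM in TBI + CD. The ranges overlapped in both arms (-0.42 ± 0.19, unadjusted p = 0.0425, adjusted p = 0.633). Hcrt, the orexin precursor of wakefulness neurons in the same lateral area, ran from 24.7 to 289 CPM in sham and from 19.0 to 136 CPM in TBI (-0.75 ± 0.42). Crh, corticotropin-releasing hormone, which starts the stress axis, ran from 1.06 to 7.12 CPM in sham and 0.774 to 5.69 CPM in TBI (-0.61 ± 0.33). Avp and Oxt, the hormones of the posterior pituitary, gave -0.12 ± 0.23 and 0.09 ± 0.22. Agrp, the peptide of hunger neurons of the arcuate nucleus, ran from 0.0747 to 16.2 CPM in sham and 1.23 to 19.5 CPM in TBI (0.74 ± 0.71). Agrp was at 0.0747 to 1.23 CPM in the 4 libraries of low ependyma score and at 2.89 to 19.5 CPM in the other 12, which did not overlap, whereas TBI and sham did. The signs for Hcrt, Agrp, Avp and Oxt reversed when the 4 libraries were left out, when the ependyma or choroid plexus score was a covariate, or both.

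Tanycytes, which line the floor of the ventricle beside the arcuate nucleus, and ependyma had higher medians in TBI. Of 14 ependyma genes 0 were called by edgeR, 2 were higher at an unadjusted p under 0.05, all 14 lay above 0 and the median was 0.83. Foxj1, the transcription factor of motile cilia, was at 11.3, 9.64, 30.2 and 45.3 CPM in Sham + VH and at 50.6, 47.0, 41.8 and 31.6 CPM in TBI + VH. It was at 25.4, 13.2, 33.5 and 9.37 CPM in Sham + CD and at 10.2, 47.7, 43.0 and 29.2 CPM in TBI + CD (0.75 ± 0.35, adjusted p = 0.633). Low levels occurred in Sham + VH, Sham + CD and TBI + CD, but in no library of TBI + VH, whose lowest was 31.6 CPM. Hydin, a protein of the ciliary axoneme, gave 0.79 ± 0.48. Of 12 tanycyte genes 0 were called, 1 was higher at an unadjusted p under 0.05 and the median was 0.33, with Rax, a transcription factor of tanycytes, at 1.13 ± 0.74 and Col23a1, a collagen, at 0.61 ± 0.46. In the 4 libraries of low ependyma score Rax was at 0.0362 to 0.224 CPM against 0.345 to 6.72 CPM in the other 12, and Col23a1 at 8.21 to 12.9 against 17.8 to 95.3 CPM. Without the 4 libraries the log2 fold changes were 0.59 for Rax and 0.21 for Col23a1. The choroid plexus list had 0 of 9 called and a median of 0.06.

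**Figure D3:**
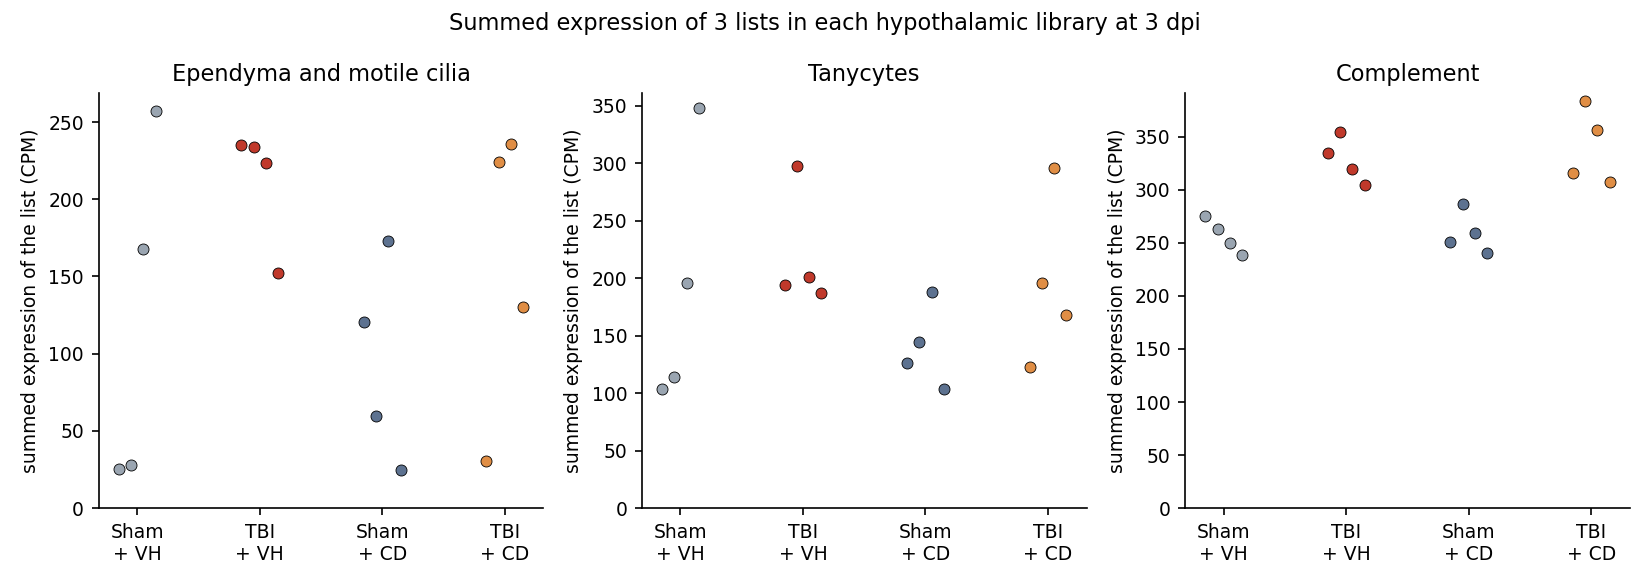
Summed level of the ependyma, tanycyte and complement lists (y axis, CPM) in each of the 16 libraries, by group, with each point a library. The complement sum runs from 238 to 286 CPM in sham and from 304 to 384 CPM in TBI libraries, whereas the ependyma sum runs from 24.5 to 257 CPM and from 30.8 to 236 CPM.

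Neuronal, myelin and response genes showed 0 calls by edgeR. In the neuron list 2 of 14 were lower and 0 higher at an unadjusted p under 0.05 (median -0.11), with Nefm, a neurofilament subunit, at -0.27 ± 0.13, and the synaptic proteins Snap25 and Syt1 at -0.12 ± 0.06 and -0.09 ± 0.05. The 4 libraries of low ependyma score held high values of these genes, at 892 to 1020 CPM against 737 to 889 CPM in the other 12 for Syt1, 1280 to 1450 against 996 to 1290 CPM for Snap25 and 132 to 230 against 88.4 to 161 CPM for Nefm. Without them the log2 fold changes were -0.04 for Syt1, -0.04 for Snap25 and -0.03 for Nefm. All 12 oligodendrocyte genes had a log2 fold change below 0 (median -0.17) and 0 had an unadjusted p under 0.05. Among them Mbp, myelin basic protein, ran from 1260 to 4520 CPM in sham and from 1330 to 3160 CPM in TBI (-0.20 ± 0.21), and its sign reversed with the ependyma score as a covariate and without the 4 libraries. Oligodendrocyte precursor genes had a median of -0.09 with 0 of 8 at an unadjusted p under 0.05.

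Targets of glucocorticoids, which the stress axis releases, had 0 of 20 genes at an unadjusted p under 0.05 (median 0.04). Nr3c1, the glucocorticoid receptor, gave 0.08 ± 0.05 and Per1, a clock gene that glucocorticoids induce, 0.09 ± 0.07. Immediate early genes, which follow neuronal firing, had 0 of 18 higher and 1 lower (median -0.08), which was Arc, a synaptic protein (-0.29 ± 0.13, adjusted p = 0.633). The receptor and enzyme list of hypothalamic neurons had 0 of 20 at an unadjusted p under 0.05 (median 0.10), their transcription factors 1 of 14 (median 0.09), heat shock and hypoxia genes 1 of 13 (median 0.03), and iron handling genes 3 of 8, all higher (median 0.05). Of the renin-angiotensin genes, the system that candesartan blocks, 0 of 11 were called, 0 were higher and 1 lower at an unadjusted p under 0.05 (median -0.01). That was Agtr2, the AT2 receptor, at 1.60 to 2.61 CPM in sham and 1.31 to 2.01 CPM in TBI (-0.28 ± 0.11, adjusted p = 0.632). Agtr1a, the AT1 receptor, gave 0.19 ± 0.18 and Agt, angiotensinogen, 0.07 ± 0.08. Markers of the neighbouring thalamus, hippocampus and cortex, and striatum had medians of -0.03, 0.05 and 0.04, with 0, 0 and 1 gene at an unadjusted p under 0.05, and the 5 pituitary genes tested had a median of 0.51 with 0.

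Each drug arm was then compared with its own sham group, so the arms share no control libraries. With 4 libraries a group, edgeR called 0 genes in the vehicle arm (577 at an unadjusted p under 0.05, 3.40%) and 0 in the candesartan arm (936, 5.52%). DESeq2 called 0 in the vehicle arm and 3 in the candesartan arm, C4b, Mki67 and Olfml3. The 5 genes were called on both arms together, a choice that favours genes with like effects in each, so their log2 fold changes by arm are given as a description. For Mki67 they were 1.33 ± 0.25 with vehicle and 1.69 ± 0.26 with candesartan, for C4b 0.70 ± 0.16 and 0.83 ± 0.16, for Cd68 0.49 ± 0.11 and 0.55 ± 0.11, for A2m 0.51 ± 0.11 and 0.42 ± 0.11, and for Ly86 0.40 ± 0.10 and 0.48 ± 0.11. The list medians were 0.35 and 0.36 for microglial activation, 0.31 and 0.33 for complement and 0.29 and 0.41 for reactive astrocytes.

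The test of the difference between arms called 0 genes by edgeR (408 at an unadjusted p under 0.05, 2.41%) and 0 by DESeq2. For the 5 called genes the difference, candesartan arm minus vehicle arm, was 0.36 ± 0.36 for Mki67, 0.13 ± 0.23 for C4b, 0.06 ± 0.16 for Cd68, -0.09 ± 0.16 for A2m and 0.08 ± 0.15 for Ly86. A p that misses the threshold does not show that the arms respond alike. The smallest unadjusted p belonged to Mtrf1l, a mitochondrial release factor, which was at 9.71, 9.41, 10.3 and 9.97 CPM in Sham + VH and at 8.75, 8.90, 8.62 and 8.26 CPM in TBI + VH. With candesartan it was at 9.28, 8.70, 9.50 and 9.04 CPM in Sham + CD and at 11.5, 10.4, 10.1 and 11.01 CPM in TBI + CD. The injured libraries were lower in one arm and higher in the other, with a difference of 0.42 ± 0.09 that did not pass the test (unadjusted p = 0.000262). AK076446, M31, Klf12, a transcriptional repressor, and Uhrf2, which binds modified DNA, followed at 0.67, 0.43, 0.30 and 0.26, and none passed.

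**Figure D4:**
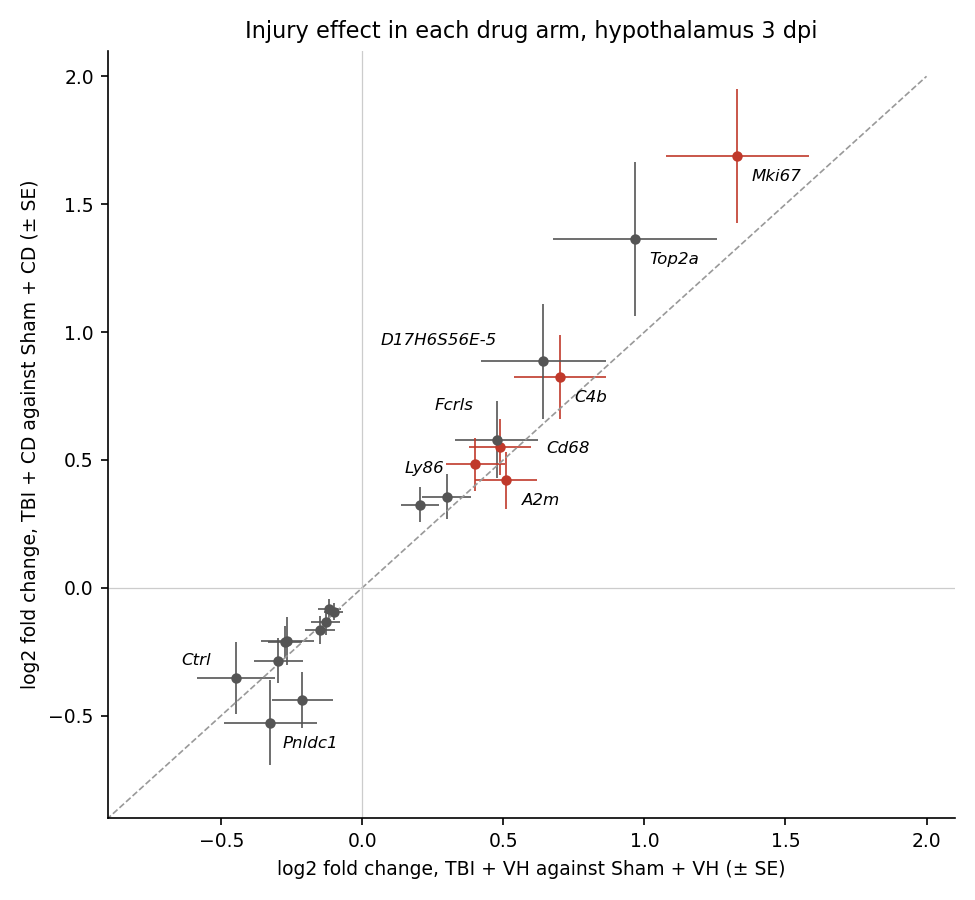
Log2 fold change in the candesartan arm (y axis) against that in the vehicle arm (x axis), with SE bars, for the genes named in the test across arms, the called ones in red and the line of equality dashed. Mki67 lies at 1.33 and 1.69 and C4b at 0.70 and 0.83.

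The same comparison in the regions nearer the impact shows how the hypothalamic values stand among them. In 16 libraries each, edgeR called 2199 genes higher (13.1% of 16756) and 380 lower (2.27%) in the hippocampus, and 162 higher (0.966% of 16762) and 1 lower (0.00597%) in the thalamus. All 5 hypothalamic genes were called higher in both. With the 48 libraries of all 3 regions at 3 dpi fitted together, the log2 fold changes of Mki67 were 1.50 in the hypothalamus, 2.15 in the thalamus and 3.36 in the hippocampus, and those of C4b 0.75, 1.81 and 2.86. Cd68 gave 0.51, 1.04 and 2.40, Ly86 0.43, 1.15 and 2.71, and A2m 0.45, 1.05 and 3.51. The order was hypothalamus, thalamus, hippocampus for each of the 5 genes. In that fit, whose spread is shared over the regions, 0 hypothalamic genes were called, the smallest adjusted p being 0.0553, that of C4b. By the study's methods the regions were dissected from the same brains, but which libraries share a mouse is not given in the sources used here. The fit treated them as independent, so its p-values for differences between regions do not take shared mice into account.

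The difference from the hippocampus passed the test for all 5 genes. Hypothalamus minus hippocampus was -1.86 ± 0.41 for Mki67 (adjusted p = 0.000706), -2.11 ± 0.20 for C4b (5.06e-11), -1.90 ± 0.20 for Cd68 (1.44e-09), -3.06 ± 0.33 for A2m (1.64e-09) and -2.28 ± 0.17 for Ly86 (1.16e-13). Over all genes 3520 of 17788 differed (19.8%), 1397 above and 2123 below 0. The smallest p belonged to genes that rose in the hippocampus and had hypothalamic values near 0: Itgam, the integrin chain CD11b of microglia, at 0.12 ± 0.07 against 1.86 ± 0.07, Unc93b1, which carries Toll-like receptors to endosomes, at 0.09 against 1.85, Chil1, a chitinase-like protein, at 0.05 against 1.83, the small heat shock protein gene Hspb6 at -0.04 against 2.63, and the dehydrogenase gene Dhrs1 at 0.09 against 1.91.

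From the thalamus 2 genes differed (0.0112% of 17788), with 635 at an unadjusted p under 0.05 (3.57%). Olfml3 was at 0.29 ± 0.09 in the hypothalamus and 1.04 ± 0.09 in the thalamus (difference -0.75 ± 0.13, adjusted p = 0.0287), and C4b differed by -1.06 ± 0.20 (adjusted p = 0.0467), a call that was lost with the replicate number as a block (adjusted p = 0.0546). Ly86 (-0.72 ± 0.17, adjusted p = 0.134), Mki67 (-0.65 ± 0.44), Cd68 (-0.53 ± 0.21) and A2m (-0.59 ± 0.31) did not pass. Nor did Tmem119 and Itgam, markers of microglia, at -0.60 and -0.49, or Parvg, an actin-binding protein of leukocytes, at -0.79 (adjusted p = 0.134 for each).

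Genes called higher in the other regions were more often above 0 in the hypothalamus than all genes tested. Of the 162 genes called higher in the thalamus 150 were tested in the hypothalamus, of which 141 had a log2 fold change above 0 (94.0%, against 49.8% of all genes tested), 74 were higher at an unadjusted p under 0.05 (49.3%, against 4.21%) and 0 lower, with a median of 0.24 beside 0.67 in the thalamus. Of the 2199 called higher in the hippocampus 2022 were tested, of which 74.3% were above 0, 301 were higher at an unadjusted p under 0.05 (14.9%) and 14 lower, with a median of 0.08 beside 0.76. Of the 380 called lower in the hippocampus 359 were tested, of which 45.4% were above 0, 8 were higher and 22 lower, with a median of -0.01. If mice gave tissue to several regions, these counts do not come from separate animals.

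**Figure D5:**
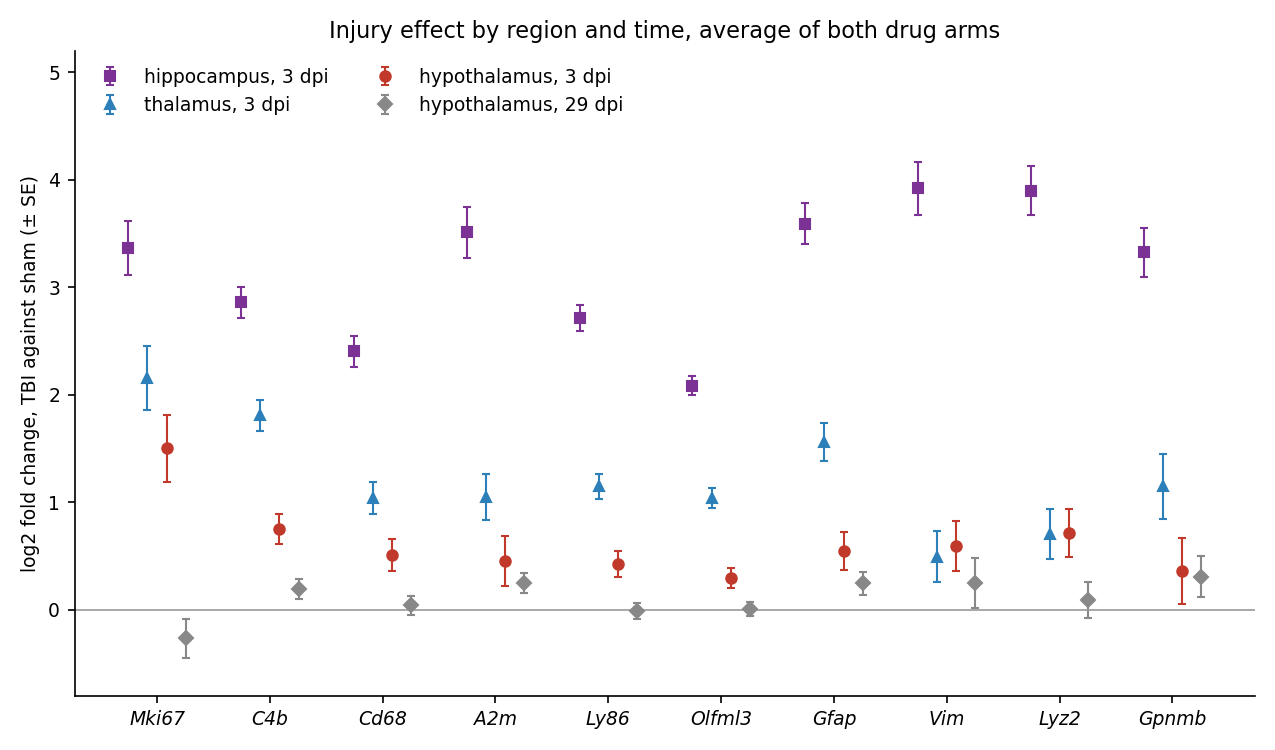
Log2 fold change of TBI against sham, averaged over both drug arms, with SE bars (y axis) for named genes (x axis) in the hippocampus, thalamus and hypothalamus at 3 dpi and the hypothalamus at 29 dpi. C4b runs from 2.86 over 1.81 to 0.75 at 3 dpi and stands at 0.20 in the hypothalamus at 29 dpi.

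At 29 dpi the hypothalamus of other mice was measured, with a drug course that went on by osmotic pump, so the time points differ in treatment as well as in time. The fit of its 16 libraries called 1 gene higher (0.00583% of 17165) and 0 lower. In a fit of the 32 hypothalamic libraries Mki67 was at 1.51 ± 0.19 at 3 dpi and -0.27 ± 0.19 at 29 dpi, and it was the only gene whose difference passed the test (1.77 ± 0.26, adjusted p = 0.00438, 1 of 17364 or 0.00576%, with 472, 2.72%, at an unadjusted p under 0.05). Where the mean was 1 CPM or more, the other differences of smallest p were 0.56 ± 0.13 for C4b (adjusted p = 0.598), 1.27 ± 0.30 for Top2a (0.598), 0.88 ± 0.21 for D17H6S56E-5 (0.598) and 0.45 ± 0.11 for Ly86 (0.602), none of which passed. At 29 dpi the values were 0.20 ± 0.09 for C4b, -0.11 ± 0.21 for Top2a, -0.11 ± 0.15 for D17H6S56E-5 and -0.01 ± 0.08 for Ly86. The list medians at 29 dpi were 0.04 for microglial activation, 0.04 for complement and 0.16 for reactive astrocytes, and 0.67 for ependyma, where it was 0.83 at 3 dpi.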

How the data were processed

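Stranded mRNA libraries were sequenced with paired ends. The authors aligned the reads to mm10 with MapSplice, counted them per gene with HTSeq 0.9.1 and deposited whole-number counts without normalization for 32594 gene symbols. The annotation and the strand setting are not given in the sources used here. Each column was assigned to a sample by its label, and 0 columns were left over. The precision is that of 4 libraries per group at the depths given above. Libraries within a group carry numbers but no animal names, and where these are not separate animals p-values measure only the spread between libraries.

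From the counts, genes were kept by filterByExpr on the 4 groups, scaled by TMM and tested 2-sided with glmQLFTest of edgeR 4.0.16 (R 4.3.3) with drug arm as covariate. P-values were adjusted over all genes tested by the Benjamini-Hochberg method, and a gene was called at FDR under 0.05 and absolute log2 fold change above 0.32, the thresholds of the study's methods. Differences between arms came from a 4-group fit, those between regions from 48 libraries and those between times from 32. The SE is the log2 fold change divided by the square root of F. Scores are mean log2 CPM with a prior count of 2. DESeq2 1.42.0 was an alternative. Positions are from GENCODE vM21 and promoters from RefSeq.

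The gene lists and comparisons were chosen with earlier results of these data known. Lists are described by counts and medians, with no set test. Genes were named by a rule: called genes, the genes of smallest p at a mean of at least 1 CPM to make 10 in a direction, called and the 3 most abundant list members, C4b, Vim, Lyz2 and Gpnmb, and the 5 genes of smallest p of each difference. The rule gives 132 genes, of which the text gives 68, and 35 others were chosen after their values were seen. The alternatives were DESeq2 with and without shrinkage, RLE scaling, no filter, FDR alone, robust dispersion, a 4-group model, no drug covariate, a replicate block, scores or the first residual component as covariates, and each library left out in turn. The authors' comparisons and the quantitative PCR were not used here. A member of the homeostatic microglia list is not reported here by name.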

Additional observations from a re-analysis of the deposited data

Results flagged for a closer look

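Among 364 groups of 4 libraries (each gene named for injury across both arms, in each group), 28 values stood far from the other 3 of their group. Chance gives this in about 1 in 20 groups, here about 18.2, and genes of a library are not independent. Of the called genes this concerned C4b in TBI + VH 1, at 92.6 CPM against 73.9 to 75.7. TBI + VH 2 was highest of its group for Lyz2 (17.8 CPM against 9.07 to 9.92), H2-Ab1 (4.76 against 1.89 to 2.04), Cd74 (13.5 against 3.55 to 4.90), Agrp (16.1 against 6.19 to 6.46), Rax (6.72 against 2.24 to 2.60), Igf2 (139 against 38.7 to 47.6) and Ogn (26.9 against 3.42 to 6.45). Sham + CD 2 was highest of its group for Clec7a (0.407 CPM), Lyz2 (10.9), Cd74 (7.52), Ccr2 (1.02) and Ogn (14.5), and TBI + CD 3 for Lgals3bp (49.0), Fn1 (178) and Ogn (30.3). Further highest values were those of Pnldc1 (2.39) and Cldn5 (15.5) in Sham + VH 3, Slc2a1 (104), Pcna (16.3) and Gsn (77.4) in Sham + VH 1, Amigo1 (111) in TBI + VH 3, Cd180 (3.03) in TBI + VH 4 and Mcm4 (16.3) in Sham + CD 3. Lowest values that stood apart were H2-K1 in Sham + CD 4 (18.7 CPM), Slc2a1 in TBI + CD 1 (73.8), Rfwd3 in Sham + VH 1 (20.1) and Ube2d3 in Sham + CD 1 (155).

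The injury effect differed between regions or times, by the test of the difference, for these named genes. Hypothalamus minus thalamus was -0.75 for Olfml3 and -1.06 for C4b on the log2 scale, that of C4b not passing the test with the replicate number as a block. Hypothalamus minus hippocampus was -1.86 for Mki67, -2.11 for C4b, -1.90 for Cd68, -3.06 for A2m, -2.28 for Ly86, -1.74 for Itgam, -1.76 for Unc93b1, -1.78 for Chil1, -2.66 for Hspb6 and -1.83 for Dhrs1. For Mki67, 3 minus 29 dpi was 1.77.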

How the results depend on the processing

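The count of 5 called genes was 4 to 6 with shrunken DESeq2 fold changes, RLE scaling, FDR alone, robust dispersion, no drug covariate, or the ependyma or choroid plexus score as covariate. It was 19 with DESeq2, 3 without a filter, 3 with the 4-group model, 438 with the first residual component as covariate (435 higher, 3 lower, all 5 shared), 3 without the libraries of low ependyma score (none shared) and 0 in the fit of 48 libraries, and 1 to 7 when a library was left out. That component was computed from the same counts with injury and drug fitted out, and the calls made with it include all 14 ependyma genes tested. The candesartan arm gave 3 calls with DESeq2 against 0. Hypothalamus minus thalamus gave 17 with DESeq2 against 2. Hypothalamus minus hippocampus gave 3926 with DESeq2, 3756 with RLE scaling and 3949 with the block. With the replicate number as a block the count across arms was 3 (C4b, Cd68 and Mki67), and that of hypothalamus minus thalamus 1 (Olfml3), where C4b was at -1.02 (adjusted p = 0.0546). Within groups, 8 of 24 same-numbered pairs correlated over 0.1 and 2 of 16 libraries correlated best with their own number. The first component of all expression values held 47% of the variance, with ependyma genes such as Ccdc153 and Tmem212 on top. Such variation also enters these correlations, so they cannot show whether the numbers pair the libraries.

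Of the single-gene results under these settings 2762 kept direction and side of the threshold, 53 passed it only in the alternative, 66 only in the main test and 9 reversed. These totals include genes called in neither setting. For the called genes, the call was lost in 2 of 30 alternatives for Mki67, 10 for Cd68, 12 for C4b, 19 for A2m and 22 for Ly86. With the ependyma score as covariate the log2 fold changes were -0.13 for Agrp, 0.086 for Avp, -0.15 for Oxt and 0.14 for Mbp. Without the libraries of low ependyma score they were 0.093 for Hcrt, 0.16 for Avp and 0.21 for Mbp. Oxt was -0.037 with the choroid plexus score and -0.0096 without Sham + VH replicate 4, with a range of -0.0096 to 0.23 as libraries were left out. The cause was not tested. Genes near 1 CPM, such as Mki67, rest on few counts (9 to 64 in a library for Mki67), which limits their precision.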
